A study of Mus musculus with 4 samples.

Results

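The nuclear-encoded subunits of oxidative phosphorylation were followed in mouse plasma cells and in myeloma cells. Members were all gene columns whose symbol begins Nduf (a, b, c, s or v and a digit), is Sdha to Sdhd, or begins Uqcr, Cox4 to Cox8 or Atp5. This gave 84 of 24421 genes: 37 in complex I, 4 in complex II, 8 in complex III, 18 in complex IV and 17 in complex V. The choice by symbol used no measured value. It carries in a few genes whose protein is no longer counted as a subunit of that complex, such as Ndufa4, now assigned to complex IV, and Atp5sl, an assembly factor.

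The study sorted CD138+ B220- cells, the surface profile of plasma cells, and prepared 4 droplet single-cell libraries. One library came from the bone marrow of wild-type C57/BL6 mice (WT). The other libraries held VQ-D2 multiple myeloma cells on the same background. These carry V{kappa}*MYC, a MYC transgene, together with Nras LSL Q61R/+, a mutant Nras allele behind a stop cassette, and IgG1-Cre, a Cre expressed from the IgG1 locus. Bone marrow gave 2 VQ libraries and lymph node gave 1. The controls were matched for age and no treatment is given. The VQ cells are labelled as donor-derived cells taken from recipients, so WT and VQ differ in transplantation as well as in genotype, and these cannot be told apart. Whether the VQ bone marrow pair came from different animals is not given, so the p-values measure only the spread between those 2 libraries, which may be technical.

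Oxidative phosphorylation passes electrons from NADH through complex I, and from succinate through complex II, to ubiquinone. Complex III hands them to cytochrome c and complex IV to oxygen, and the proton gradient built on the way drives complex V, the ATP synthase. Complexes I, III, IV and V also hold subunits encoded in mitochondrial DNA, which had 0 columns in the tables and were not analysed here. Plasma cells are known to respire on pyruvate taken up by mitochondria while they secrete antibody.

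Jchain, which encodes the joining chain of polymeric antibodies, split the cells. WT cells with at least 5% of their UMIs (counted transcripts) from Jchain were set against VQ cells under 5%. These were 106 of 163 WT cells, 226 of 245 and 170 of 188 VQ bone marrow cells (replicates 1 and 2), and all 185 lymph node cells. The cells next to the limit had 4.98% and 5.51% in WT, 4.54% and 5.93% in VQ bone marrow replicate 1, and 2.69% and 5.39% in replicate 2, and the lymph node cells reached 1.75%. Jchain made up 20.4% of the UMIs of the selected WT cells, so every level below is given as CPM, the UMIs of a gene per 1000000 UMIs other than Jchain. Such totals were 162471 in WT, 1039024 and 441973 in VQ bone marrow and 799731 in lymph node, so WT sets the precision. No barcode was shared between libraries (0 for each pair).

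Other features of the cells moved with the groups. The summed level of the plasma cell markers other than Jchain was 28288 CPM in WT and 9870, 10901 and 11406 CPM in VQ bone marrow replicates 1 and 2 and lymph node. All 14 markers, Jchain included, had UMIs in WT, and Tnfrsf13b was at 0 in VQ bone marrow replicate 2 and lymph node. Of 26 cell cycle genes, 14 had UMIs in WT (277 CPM) and 26 in each VQ library (3430, 3202 and 3007 CPM). Neutrophil markers summed to 80.0 CPM in WT (4 of 8 with UMIs; Ltf, Lcn2, Elane and Mpo at 0), 994 and 2910 CPM in VQ bone marrow (8 and 7 of 8) and 1.25 CPM in lymph node (1 of 8). B cell precursor markers stood at 1286 CPM in WT (8 of 11; Rag2, Igll1 and Pax5 at 0) and between 367 and 534 CPM in VQ, where 2 or 3 of 11 were seen. Erythroid markers were at 0 in all libraries. The part of these features in the results was not tested, and values of the main genes without cells in cycle and without cells of other types are given below.

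As a sum, the 84 subunits were lowest in WT, by a small margin. They made up 2.13% of UMIs in WT (exact 95% counting interval 2.06 to 2.21), 2.43% and 2.38% in VQ bone marrow, and 2.54% in lymph node. The median cell of these libraries gave 2.17%, 2.34%, 2.36% and 2.50%, in the same order. In WT the interquartile range over cells ran from 1.70% to 2.51%, which holds the medians of the VQ libraries. Intervals cover counting error only.

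The complexes were not alike. Complex I took 0.819% of UMIs in WT against 0.792%, 0.780% and 0.820% in VQ bone marrow replicates 1 and 2 and lymph node, so the WT value lay inside the VQ range. Complex II took 0.0683% in WT against 0.0901%, 0.0862% and 0.0943%. Complex III took 0.198% against 0.266%, 0.246% and 0.275%. Complexes II and III, like complexes IV and V below, were lower in WT than in each VQ library. Complex IV took 0.453% in WT against 0.586%, 0.580% and 0.615%. Complex V took 0.595% against 0.695%, 0.684% and 0.737%.

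**Figure D1:**
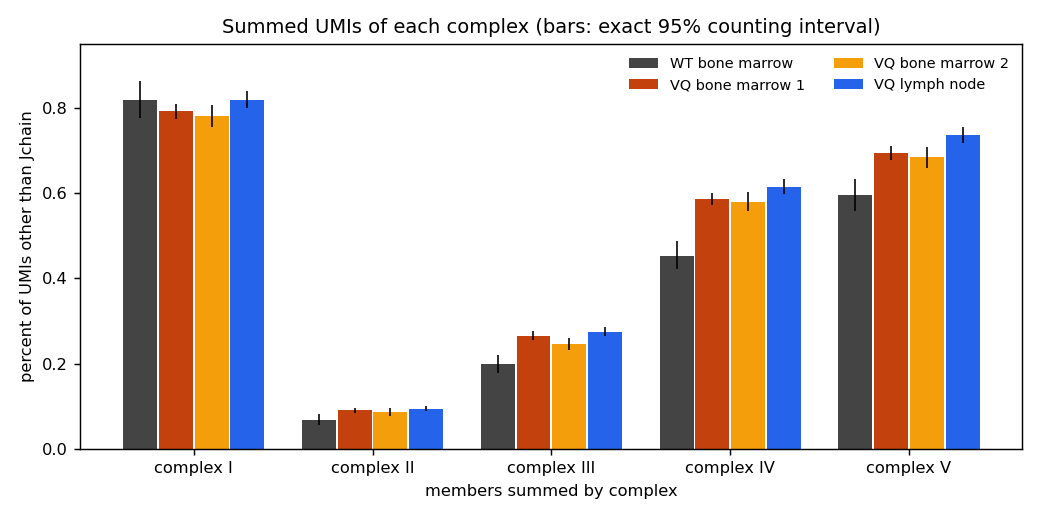
Summed UMIs of each complex as a percent of UMIs other than Jchain (bars, with exact 95% counting intervals), in 1 WT, 2 VQ bone marrow and 1 VQ lymph node library. Complex I is level at about 0.8% in all 4 libraries, while the WT bar is the lowest for complexes II to V.

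The sum of complex I hid a lower level of its core subunits in WT. Its 7 catalytic core subunits, which carry the flavin, the iron-sulfur clusters and the ubiquinone site, took 0.0702% of UMIs in WT and 0.105%, 0.108% and 0.0983% in VQ bone marrow and lymph node. Its 30 accessory subunits took 0.749% in WT and 0.687%, 0.672% and 0.721% in the VQ libraries. The WT interval of the accessory sum (0.708 to 0.792) held the lymph node value. In complex V, the 5 subunits of the F1 head, which makes ATP, took 0.284% in WT and 0.311%, 0.288% and 0.322% in VQ, and the WT interval (0.259 to 0.312) reached the bone marrow values. The 12 other members of complex V took 0.311% in WT and 0.384%, 0.396% and 0.415% in VQ.

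Single genes were tested with edgeR's quasi-likelihood test on the summed cells, and a gene is called at a Benjamini-Hochberg adjusted p under 0.05 over all 8414 genes that passed the filter on low counts. Of the 84 members, 72 passed it. Of the 12 that did not, 5 had no UMI in any library (Ndufa4l2, Ndufs5, Cox4i2, Cox8b and Cox8c) and 7 had few (Cox6a2, Cox6b2, Cox7a1, Cox7b2, Atp5g2, Atp5l and Atp5s). Of the short sequence windows in their 3′ ends, 54.6% in Ndufs5, 70.1% in Atp5l and 41.4% in Atp5g2 also occur in other genes. The remaining untested members shared none. Whether such sharing lowered the counts of Ndufs5, Atp5l and Atp5g2 was not tested. In VQ bone marrow against WT, 19 of 72 members were called higher and 6 lower. Over all genes, 17.7% were called higher and 12% lower, against 26.4% and 8.33% of the members. The larger share of higher calls did not hold in 2 other tests. With a coefficient of variation preset at 0.2, edgeR called 4.17% of the members higher and 2.78% lower, below the 11.4% and 8.49% of all genes. DESeq2 called 2.78% either way, close to the 2.66% and 3.09% of all genes. The median log2 fold change was 0.16 over the members and 0.22 over all genes, or 0.09 where the 748 genes at 0 in WT or VQ bone marrow are set at the bound given by a floor of 3 counts.

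In VQ lymph node against WT, 15 of 72 members were called higher and 5 lower, or 20.8% and 6.94%. All genes gave 16.2% higher and 11.9% lower. The preset coefficient of variation gave 4.17% and 1.39% of the members against 9.7% and 7.86% of all genes, and DESeq2 gave 2.78% and 0% against 2.28% and 2.41%. The member median was 0.28 and that of all genes 0.16, or 0.05 where the 790 genes at 0 in WT or lymph node are set at the same bound. Both comparisons use the same WT library, so a high or low WT value enters both. All 3 VQ libraries lay above WT for 39 of 72 members (54.2%, against 47.5% of all genes) and below WT for 22 (30.6%, against 36.5%).

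Complex by complex, VQ bone marrow had 8 members higher and 3 lower of 35 tested in complex I (median -0.03), 1 and 1 of 4 in complex II (0.41) and 3 and 0 of 8 in complex III (0.48). Complex IV had 4 higher and 1 lower of 11 (0.37), and complex V had 3 and 1 of 14 (0.05). Lymph node had 4 higher and 4 lower in complex I (-0.06), 1 and 0 in complex II (0.46), 2 and 0 in complex III (0.38), 4 and 0 in complex IV (0.48) and 4 and 1 in complex V (0.34). The medians for bone marrow in complexes II, III and IV were above 0 under every scaling tried. That of complex I turned to 0.29 with Jchain kept in the totals and 0.07 with ribosomal protein genes left out, and that of complex V to -0.04 with DESeq2. With Jchain kept in, the median of all genes also moved, from 0.22 to 0.56 in bone marrow and from 0.16 to 0.51 in lymph node.

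**Figure D2:**
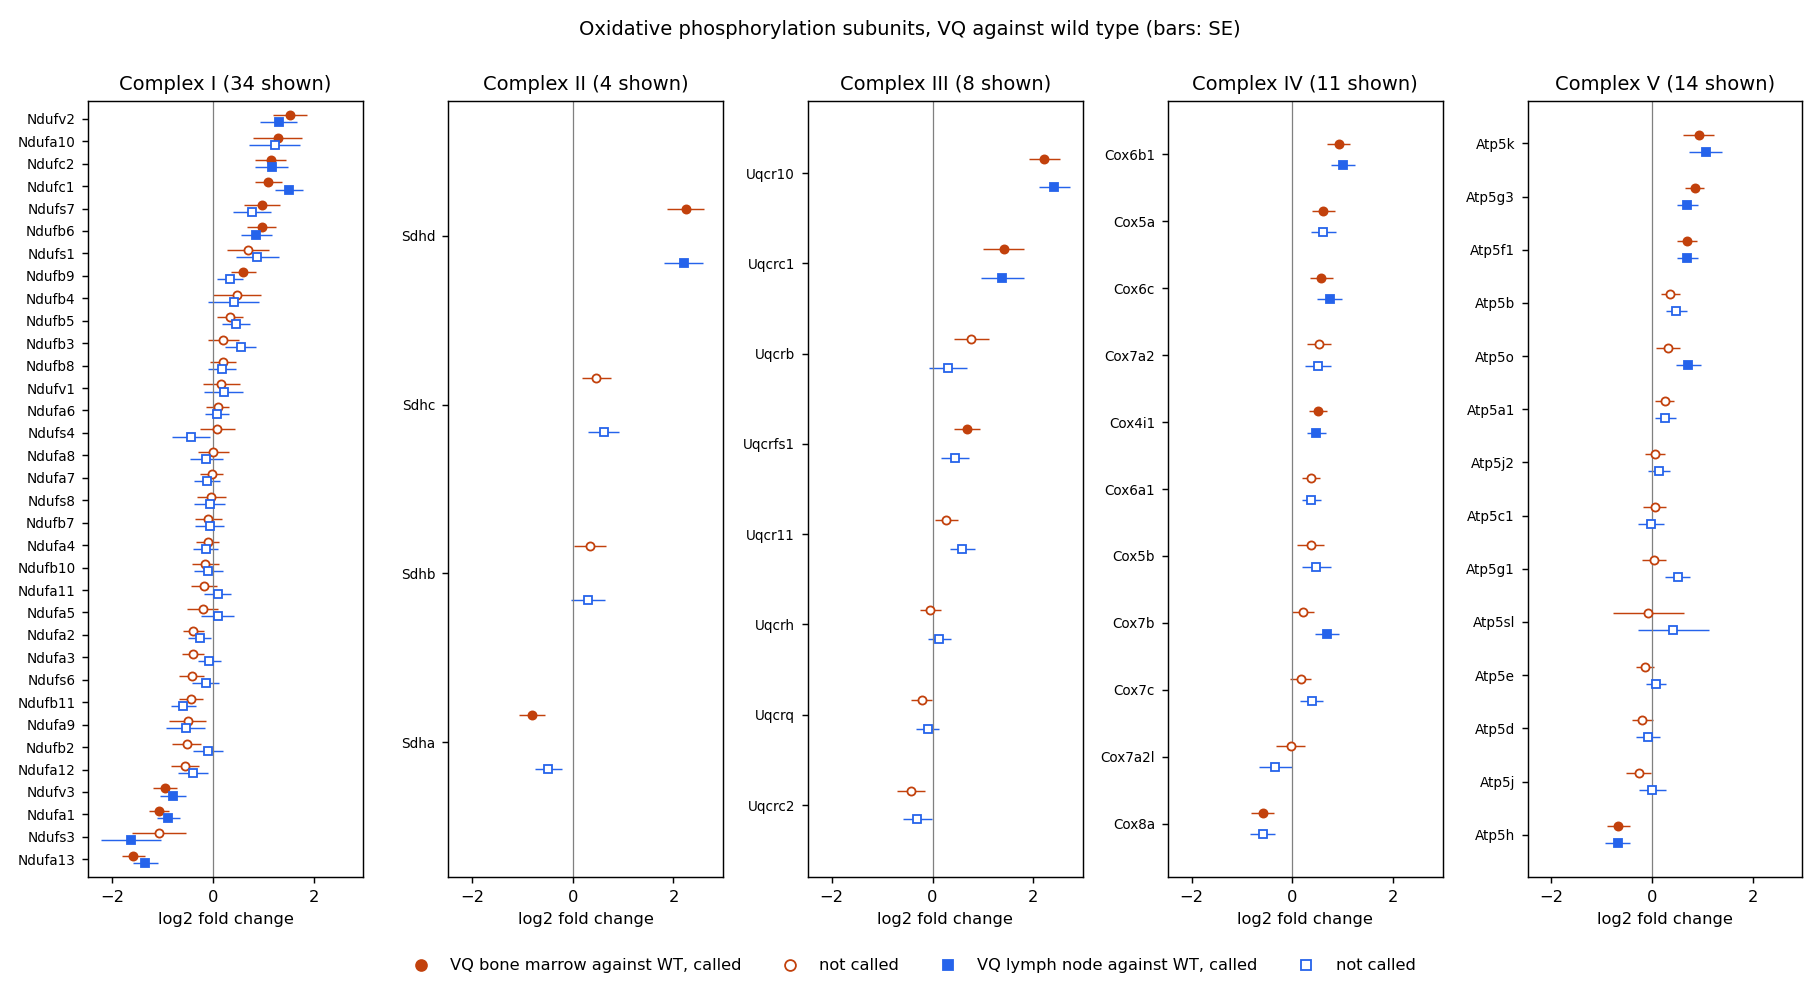
Log2 fold change against WT of 71 of the 72 tested members by complex (circles, VQ bone marrow; squares, VQ lymph node; filled, called; bars, SE). Complex I spreads on both sides of 0, and Sdhd and Uqcr10 stand farthest to the right.

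The largest rise in complex I in VQ bone marrow was that of Ndufv2, an iron-sulfur subunit of the NADH-oxidising end, while Ndufc1 rose more in lymph node. Its level was 86.2 CPM in WT (14 UMIs), 232 and 274 CPM in VQ bone marrow and 214 CPM in lymph node. All 3 VQ libraries were high and WT was low. The log2 fold change was 1.53 (SE 0.34, edgeR adjusted p = 9.43e-05) in bone marrow and 1.31 (SE 0.37, adjusted p = 0.0026) in lymph node. The call in bone marrow was lost with DESeq2, without cells with cell cycle genes and with thinned sums, with log2 fold changes between 1.04 and 1.85 over the alternatives.

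Among the core subunits, Ndufs7, an iron-sulfur subunit beside the ubiquinone site, was also higher in VQ bone marrow. It read 92.3 CPM in WT and 188, 172 and 159 CPM in the VQ libraries. Its bone marrow change was 0.97 on the log2 scale (edgeR adjusted p = 0.0241), and it was not called in lymph node (adjusted p = 0.109). In lymph node 1 core subunit was called higher (Ndufv2) and 1 lower, Ndufs3, at 73.9 CPM in WT, 29.8 and 45.3 CPM in bone marrow and 23.8 CPM in lymph node. Ndufs3 rested on 12 WT and 19 lymph node UMIs (log2 fold change -1.63, SE 0.60, adjusted p = 0.0273). Of the 50-base windows in its last 300 transcript bases, 53% also occur in another gene, so its counts may be split with that gene.

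The accessory subunits of complex I went both ways. In bone marrow 5 of 28 were called higher and 3 lower (17.9% and 10.7%, against 17.7% and 12% of all genes). In lymph node 3 were higher and 3 lower (10.7% each, against 16.2% and 11.9%). Ndufc1, in the membrane arm, read 166 CPM in WT (27 UMIs), 350 and 367 CPM in VQ bone marrow and 474 CPM in lymph node. WT lay below every VQ library, and the gene rose by 1.10 on the log2 scale (SE 0.27, edgeR adjusted p = 0.000492) in bone marrow and 1.51 (SE 0.28, adjusted p = 2.06e-06) in lymph node. Ndufc2, its membrane-arm neighbour, read 123 CPM in WT against 290, 249 and 276 CPM. Ndufa10 rested on 7 WT UMIs: 43.1 CPM in WT against 114, 90.5 and 101 CPM, called in bone marrow (1.29, SE 0.48, adjusted p = 0.0289) and not in lymph node (1.23, adjusted p = 0.0516).

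Of the complex I members called lower in bone marrow, Ndufa13 and Ndufa1 fell farthest. Ndufa13 (GRCm38 chr8:69894180-69902558), also known as Grim19, encodes an accessory subunit of complex I. Its level was 511 CPM in WT (83 UMIs), 189 and 143 CPM in VQ bone marrow and 201 CPM in lymph node. WT stood above every VQ library, 2.99-fold above bone marrow. The log2 fold change was -1.58 (SE 0.23, edgeR adjusted p = 1.17e-10) in bone marrow and -1.34 (SE 0.25, adjusted p = 1.23e-06) in lymph node, where DESeq2 did not call it (-1.40, adjusted p = 0.0789). An exon of the gene overlaps Tssk6 on the other strand, and whether counting used strand is not given in the sources used here. Exons of other called members also overlap genes on the other strand, among them Atp5f1 (Wdr77), Cox4i1 (Emc8) and Cox6c (Vps13b).

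Ndufa1 (chrX:37187588-37191163), a small membrane-arm subunit needed to assemble complex I, read 628 CPM in WT (102 UMIs), 280 and 326 CPM in VQ bone marrow and 340 CPM in lymph node. WT was again the highest library. The log2 fold change was -1.07 (SE 0.20, edgeR adjusted p = 2.91e-06) in bone marrow and -0.88 (SE 0.23, adjusted p = 0.000752) in lymph node. In all cells of each library, with no Jchain limit, the bone marrow change shrank to -0.53 and was not called (adjusted p = 0.0762). Ndufv3, an accessory protein of the NADH-oxidising end, read 412 CPM in WT against 218, 208 and 239 CPM and was called lower in both comparisons. Ndufa2, the complex I member with the highest mean level over the 4 libraries, was not called (486 CPM in WT against 383, 357 and 406 CPM).

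Complex II joins the citric acid cycle to the respiratory chain, and its 4 subunits did not move together. Sdhd (chr9:50596357-50603812), a membrane anchor that holds heme and part of the ubiquinone site, read 61.5 CPM in WT (10 UMIs), 287 and 299 CPM in VQ bone marrow (298 and 132 UMIs) and 284 CPM in lymph node (227 UMIs). The VQ libraries were close to each other and WT was far below. It was 4.73-fold higher in bone marrow (log2 2.24, SE 0.37, edgeR adjusted p = 2.15e-08) and 4.6-fold higher in lymph node (log2 2.20, SE 0.38, adjusted p = 2.22e-07). The WT UMIs lay in 8 of 106 cells, with at most 2 in a cell.

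Sdha, the flavoprotein that oxidises succinate, went the other way. It read 308 CPM in WT (50 UMIs), 177 and 174 CPM in VQ bone marrow and 220 CPM in lymph node. WT was above every VQ library, and the change was called in bone marrow (log2 -0.81, SE 0.26, edgeR adjusted p = 0.00882) and not in lymph node (-0.48, SE 0.27, adjusted p = 0.175). The bone marrow call was lost in 7 of 15 alternatives. The other anchor, Sdhc, and the iron-sulfur subunit, Sdhb, were not called. Sdhc read 172 CPM in WT against 243, 231 and 264 CPM, and Sdhb read 142 CPM against 194, 158 and 175 CPM.

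In complex III the gene farthest from WT was Uqcr10 (chr11:4701973-4704342), which encodes a small subunit beside cytochrome c1. Its level was 98.5 CPM in WT (16 UMIs), 471 and 443 CPM in VQ bone marrow (489 and 196 UMIs) and 528 CPM in lymph node (422 UMIs). No other member rose by more in lymph node, and WT lay far below each VQ library. It was 4.65-fold higher in bone marrow (log2 2.22, SE 0.30, edgeR adjusted p = 9.84e-12) and 5.35-fold higher in lymph node (log2 2.42, SE 0.31, adjusted p = 8.19e-13). The WT UMIs came from 12 of 106 cells. Uqcrc1, a core protein of the matrix side, rested on 10 WT UMIs: 61.5 CPM against 159 ± 29.7 CPM (SD, n = 2) in bone marrow and 161 CPM in lymph node (log2 1.41, SE 0.40, adjusted p = 0.00284 in bone marrow).

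The remaining members of complex III were closer to WT. Uqcrfs1, the Rieske iron-sulfur protein that passes electrons on from ubiquinol, read 222 CPM in WT against 356, 357 and 301 CPM and was called in bone marrow (log2 0.69, edgeR adjusted p = 0.0296). Uqcrh, the hinge protein and the complex III member with the highest mean level, read 474 CPM against 432, 491 and 520 CPM and was not called. Uqcrq, a small subunit, read 480 CPM against 411, 419 and 450 CPM, and Uqcrc2, the other core protein, read 228 CPM against 185, 143 and 185 CPM. Neither was called.

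**Figure D3:**
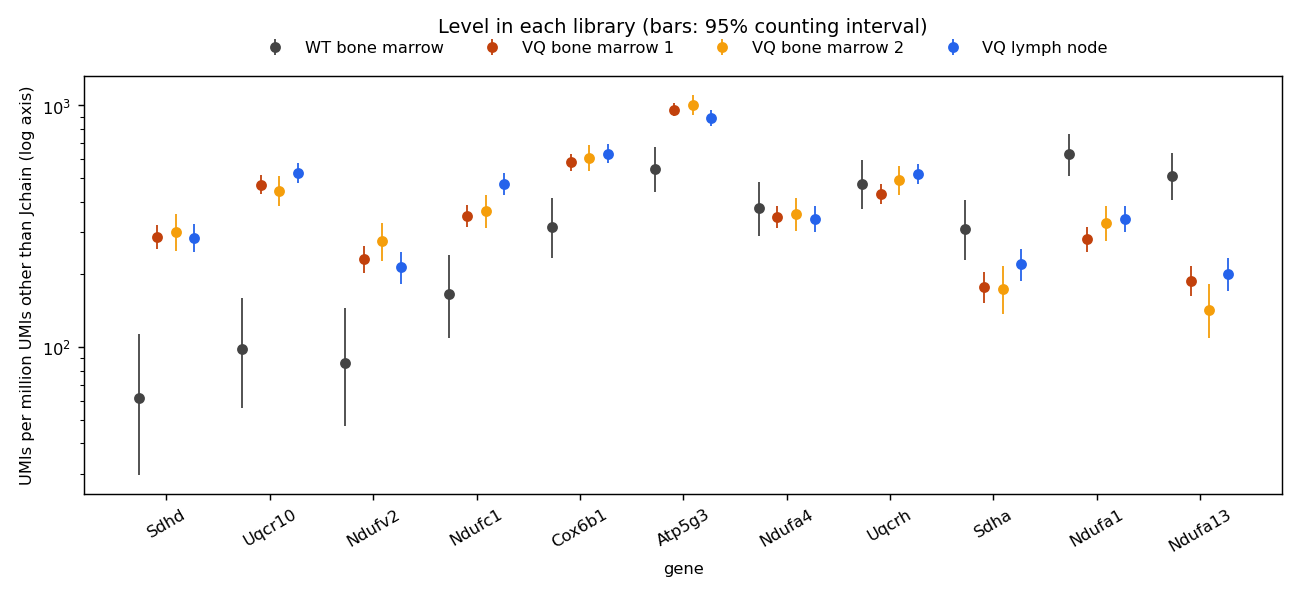
Level of 11 members in each library in CPM (log axis; bars, 95% counting interval). Sdhd, Uqcr10, Ndufv2 and Ndufc1 are low in WT, Sdha, Ndufa1 and Ndufa13 are high in WT, and Ndufa4 and Uqcrh overlap.

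Complex IV changes were smaller and mostly upward. Cox6b1, which faces the intermembrane space where cytochrome c docks, read 314 CPM in WT (51 UMIs), 582 and 606 CPM in VQ bone marrow and 633 CPM in lymph node. WT was below all VQ libraries, and the gene rose by 0.92 on the log2 scale (SE 0.22, edgeR adjusted p = 0.000359) in bone marrow and 1.01 (SE 0.24, adjusted p = 0.000252) in lymph node. Cox4i1, the regulatory subunit that carries a nucleotide site, read 782 CPM in WT against 1097, 1120 and 1089 CPM (log2 0.50 and 0.48, adjusted p = 0.0192 and 0.0494). Its call in bone marrow was lost in 8 of 15 alternatives.

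Cox5a and Cox6c were also higher in VQ bone marrow (log2 0.62 and 0.57, edgeR adjusted p = 0.0304 and 0.044). The call of Cox5a was lost in 8 of 15 alternatives. Cox6c, a small membrane subunit, shares 38.2% of the windows of its 3′ end with another gene, and its call was lost in 13 of 15 alternatives. Cox7b was called only in the lymph node comparison, at 375 CPM in WT, 482 and 376 CPM in bone marrow and 603 CPM in lymph node (log2 0.68, adjusted p = 0.0167), and the difference between lymph node and bone marrow itself was not called (log2 0.47, adjusted p = 0.0891). Cox8a was the lower member: 412 CPM in WT against 312, 222 and 274 CPM, called in bone marrow (log2 -0.59, SE 0.23, adjusted p = 0.0355) and lost in 11 of 15 alternatives. Cox6a1, with the most UMIs of complex IV, read 911 CPM in WT against 1122, 1240 and 1180 CPM and was not called (log2 0.37, adjusted p = 0.0877).

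Complex IV has tissue-specific forms of several subunits, and the common forms carried nearly all UMIs here. Cox4i2, Cox8b and Cox8c had 0 UMIs in every library, beside 127 to 1140 UMIs of Cox4i1 and 67 to 324 of Cox8a. Cox6b2 had 1 UMI in all, Cox7a1 had 3 (lymph node) and Cox7b2 had 8, 1 and 1 in the VQ libraries. Cox6a2, the heart and muscle form of Cox6a1, had 4 UMIs in the selected WT cells and 0 in each VQ library. In the 57 WT cells under the Jchain limit it had 33 UMIs (243 CPM). The same cells held markers of several types, among them neutrophil markers at 7230 CPM, B cell precursor markers at 5947 CPM and dendritic cell markers at 744 CPM. At least 2 markers of these types were carried by 1, 25 and 11 of the 57 cells. Dendritic cell markers stood at 295 CPM in the selected WT cells. They stood at 207, 226 and 474 CPM in VQ bone marrow and lymph node, where Cox6a2 had 0 UMIs. The part of any cell type in the Cox6a2 level was not tested. Cox7a2 and Cox7a2l, a factor that joins complexes III and IV, were not called (265 CPM in WT against 392, 371 and 376 CPM, and 185 CPM against 187, 170 and 146 CPM).

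In the c ring of complex V, which turns as protons pass, only Atp5g3 was called. Atp5g1, Atp5g2 and Atp5g3 encode the same mature c subunit. Atp5g3 read 548 CPM in WT (89 UMIs), 961 and 1002 CPM in VQ bone marrow and 889 CPM in lymph node. WT was below all VQ libraries (log2 0.84, SE 0.19, edgeR adjusted p = 0.000118 in bone marrow, and 0.70, SE 0.21, adjusted p = 0.00496 in lymph node). Atp5g1 read 295 CPM in WT against 309, 294 and 419 CPM and was not called, and Atp5g2 had 1 WT UMI. Of the windows of their 3′ ends, 20.3% in Atp5g1 and 41.4% in Atp5g2 are shared with other genes. The 3 genes together took 0.0849% of UMIs in WT and 0.128%, 0.130% and 0.132% in VQ.

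The stalk subunits of complex V, which tie the head to the membrane, split in sign. Atp5f1, the b subunit, read 535 CPM in WT, 863 and 867 CPM in VQ bone marrow and 867 CPM in lymph node (log2 0.69 in both, edgeR adjusted p = 0.00237 and 0.00583). Atp5h, the d subunit, read 455 CPM in WT, 277 and 299 CPM in bone marrow and 283 CPM in lymph node. WT was the highest library for Atp5h and the lowest for Atp5f1. The change of Atp5h was -0.67 in bone marrow and -0.69 in lymph node (adjusted p = 0.0121 and 0.0207); it was lost in 9 of 15 alternatives in bone marrow, and 38.2% of the windows of its 3′ end are shared with another gene. Atp5o, the protein that caps the stalk, was called in lymph node (308 CPM in WT against 504 CPM, log2 0.71, edgeR adjusted p = 0.0187) and not in bone marrow (350 and 428 CPM). Its exons overlap Donson on the same strand, and 29.1% of the windows of its 3′ end are shared with another gene. Atp5k, the e subunit of the membrane part, read 129 CPM in WT (21 UMIs) against 239, 256 and 270 CPM and was called in both comparisons. None of the 5 F1 head genes was called in either comparison with WT by edgeR (0 and 0): Atp5b, the catalytic beta subunit, read 622 CPM in WT against 899, 672 and 865 CPM (log2 0.35, adjusted p = 0.149 in bone marrow).

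Because a level depends on the total it is divided by, pairs of subunits of 1 complex were also compared as shares of their joint UMIs, which no scaling changes. These pairs were picked after the levels were known and are given with no test. The first gene of each was called higher in VQ bone marrow and its partner was not, so a low WT share follows from the choice. Sdhd made up 16.7% of the UMIs of Sdhd and Sdha in WT (exact 95% interval 8.29 to 28.5) and 61.8%, 63.2% and 56.3% in VQ bone marrow and lymph node. Uqcr10 made up 17.0% of its pair with Uqcrq in WT (10.1 to 26.2) and 53.4%, 51.4% and 54.0% in VQ. In each pair the WT interval ended below the VQ values.

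In complex I, Ndufc2 made up 19.4% of its pair with Ndufa13 in WT and 60.6%, 63.6% and 57.9% in VQ. Ndufc1 made up 20.9% of its pair with Ndufa1 in WT and 55.6%, 52.9% and 58.2% in VQ. Ndufv2 made up 17.3% of its pair with Ndufv3 in WT and 51.6%, 56.8% and 47.2% in VQ. All 3 shares thus stood at or under 20.9% in WT and at or above 47.2% in VQ. The 2 pairs from complexes IV and V moved less: Cox6b1 made up 43.2% of its pair with Cox8a in WT and 65.1%, 73.2% and 69.8% in VQ, and Atp5f1 made up 54.0% of its pair with Atp5h in WT and 75.7%, 74.4% and 75.4% in VQ.

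**Figure D4:**
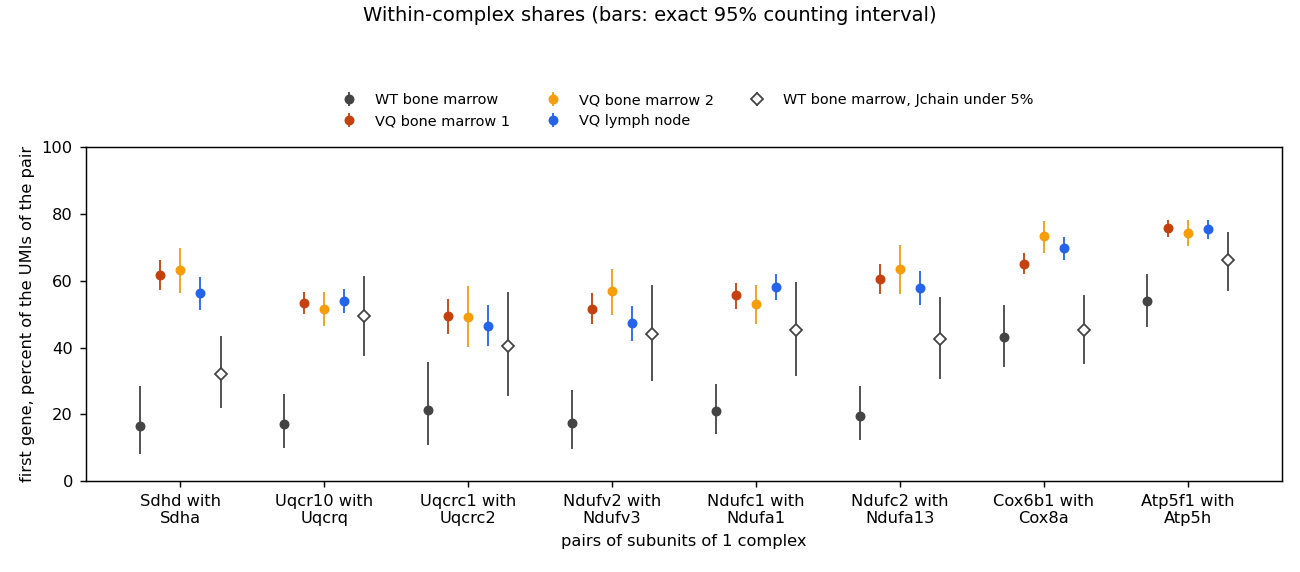
Share of the first gene in the joint UMIs of pairs of subunits of 1 complex (filled points by library; open diamonds, the 57 WT cells with Jchain under 5%; bars, exact 95% counting interval). The selected WT cells have the lowest share in each pair, and the other WT cells lie between them and the VQ libraries or overlap the VQ libraries. Pairs were picked after the levels were known, with a gene called higher in VQ bone marrow first, so the low share in the selected WT cells follows from the choice.

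WT cells that missed the Jchain limit were nearer to the VQ cells in several of these genes. In those 57 cells (135688 UMIs), Uqcr10 read 265 CPM, against 98.5 CPM in the selected WT cells, and its share with Uqcrq was 49.3% (37.4 to 61.3). Sdhd read 184 CPM against 61.5 CPM, with a share of 32.1% (21.9 to 43.6) with Sdha. Ndufa13 read 287 CPM against 511 CPM, Ndufa1 read 214 CPM against 628 CPM and Ndufv2 read 162 CPM against 86.2 CPM. Other genes were not nearer, among them Sdha at 391 CPM, Atp5g3 (420 CPM against 548 CPM) and Cox4i1 (656 CPM against 782 CPM). Cox6b1 (317 CPM against 314 CPM) and Ndufc1 (177 CPM against 166 CPM) hardly moved. The 57 cells were mixed: B cell precursor markers summed to 5947 CPM and neutrophil markers to 7230 CPM, 25 cells carried at least 2 precursor markers, and cell cycle genes summed to 3405 CPM against 277 CPM in the selected cells.

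The reverse set, VQ bone marrow cells with at least 5% Jchain, held 19 and 18 cells and 27678 UMIs in all. Uqcr10 read 253 CPM there (7 UMIs, exact 95% interval 102 to 521) and Sdhd read 181 CPM (5 UMIs, 58.7 to 422). Ndufa13 also read 181 CPM, and Ndufa1 read 542 CPM (15 UMIs, 303 to 894). These counts are too small to place the cells on the WT or the VQ side. Jchain level, cell type and genotype move together in the comparison of selected cells, and their parts cannot be told apart.

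Leaving out cells in cycle took away most of the calls in VQ bone marrow, but not those of Uqcr10, Sdhd, Uqcrc1, Ndufa13 and Ndufa1. Cells with UMIs of at least 2 cell cycle genes were 4 of 106 in WT and 186 of 226, 124 of 170 and 147 of 185 in VQ bone marrow and lymph node. Without them, 3 of 68 members were called higher and 2 lower in VQ bone marrow, against 11.2% and 9.52% of all genes, from totals of 153573 UMIs in WT and 74909 and 51306 in VQ bone marrow and with 2564 genes tested. The higher members were Uqcr10 (log2 2.02, edgeR adjusted p = 0.000322), Sdhd (2.00, adjusted p = 0.00257) and Uqcrc1 (1.78, adjusted p = 0.0176). The lower members were Ndufa13 (-1.09, adjusted p = 0.0315) and Ndufa1 (-0.99, adjusted p = 0.0491). In lymph node Sdhd (1.25, adjusted p = 0.166), Ndufa1 (-0.71, adjusted p = 0.244) and Uqcrc1 were no longer called. In bone marrow the calls were also lost for Ndufv2 (1.14, adjusted p = 0.12), Ndufc1 (0.60, adjusted p = 0.374), Sdha (-0.55, adjusted p = 0.38), Cox6b1 (0.90, adjusted p = 0.0887) and Atp5g3 (0.62, adjusted p = 0.217). Without cells that carry markers of another type, Ndufv2, Ndufc1, Sdha, Cox6b1 and Atp5g3 kept their bone marrow calls. Their changes were 1.65, 1.16, -0.80, 0.77 and 0.84 in that order.

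Uqcr10, Sdhd and Ndufa13 kept their bone marrow calls in 14 of 15 alternatives each, and their lymph node calls in 14, 13 and 13. The size of their adjusted p-values depended strongly on the setting. In bone marrow the edgeR adjusted p of Uqcr10 was 9.61e-16 with Jchain kept in the totals, 0.00216 at a Jchain limit of 2% and 0.126 with thinned sums. In the same settings Sdhd gave 3.16e-11, 0.00514 and 0.126, and Ndufa13 gave 4.27e-07, 0.00517 and 0.147. Among the other members described above as called, bone marrow calls were lost in 4 of 15 alternatives for each of Ndufc1, Cox6b1, Atp5g3 and Atp5f1, in 5 for Ndufv3, in 6 for each of Ndufc2, Uqcrc1 and Atp5k, in 7 for Uqcrfs1, in 8 for Ndufs7 and in 8 of 14 for Ndufa10. The lymph node calls of Ndufs3, Cox7b and Atp5o were lost in 11 of 14, 10 of 15 and 6 of 15. In the thinned alternative the sums were thinned to the WT total, and edgeR then called 0 of 4877 genes, with 1448 genes and 17 of 71 members at an unadjusted p under 0.05. Leaving out cells with markers of another type gave log2 fold changes of 2.85 for Uqcr10, 2.18 for Sdhd and -1.67 for Ndufa13. Leaving out WT cells with UMIs of MHC class II genes, which kept 62 of 106 WT cells, gave 2.18, 2.53 and -1.53. With all cells of each library the changes were smaller but called (1.38, 1.30 and -1.26). With the VQ libraries as 1 group, an alternative that was followed by leaving out each VQ library in turn after the data were seen, all 3 genes and Ndufa1 were called each time.

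**Figure D5:**
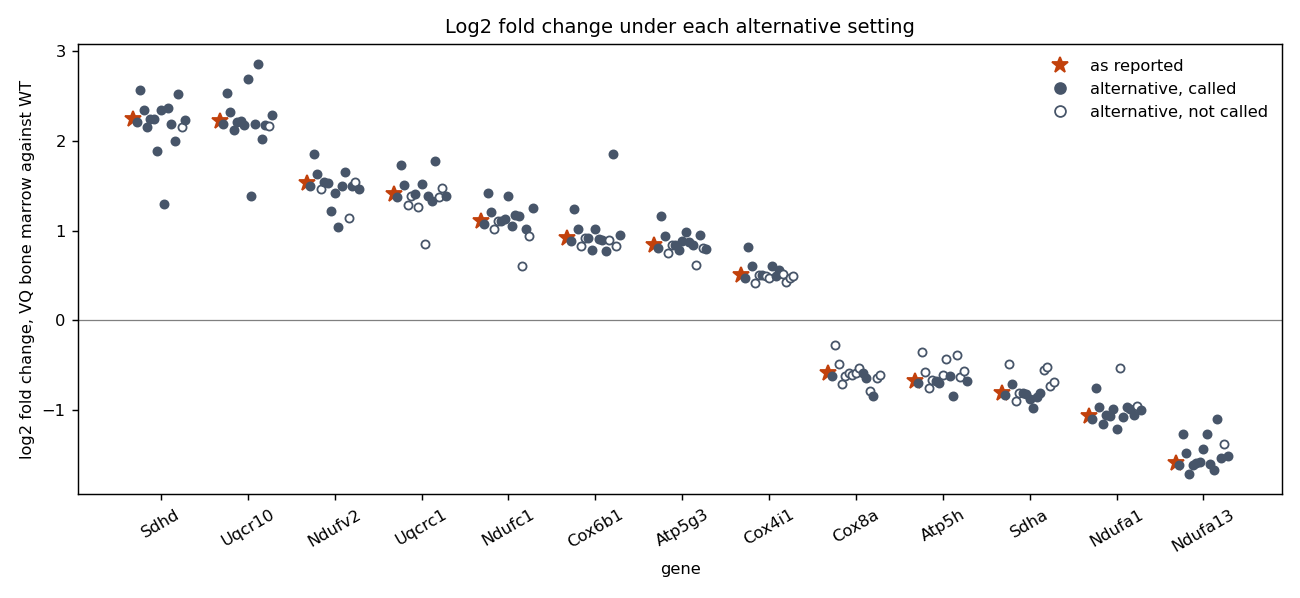
Log2 fold change, VQ bone marrow against WT, of 13 members as reported (star) and under each alternative with a test (filled, called; open, not called). No gene crosses 0; Sdhd and Uqcr10 are lowest, at 1.30 and 1.38, with all cells of each library.

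Between VQ lymph node and VQ bone marrow, 0 of 72 members were called higher and 0 lower by edgeR, against 1.68% and 1.34% of all genes. DESeq2 also called 0 members either way (0.155% of all genes higher and 0.119% lower), as did edgeR with a preset coefficient of variation (0.535% and 0.44%). At an unadjusted p under 0.05 there were 7 members, against 1028 of 8414 genes, with Cox7b (log2 0.47, adjusted p = 0.0891) and Atp5g1 (0.47, adjusted p = 0.13) first. The changes ran from -0.56 to 0.50 with a median of 0.05. On simulated counts of these depths the same test recovered 65 of 100 genes changed 2-fold and 99 of 100 changed 4-fold. Against WT it recovered 33 of 100 and 89 of 100 in bone marrow and 26 and 87 of 100 in lymph node. Most simulated 2-fold changes against WT were thus missed. Those changes were placed in genes of many levels, so the rates are not those of the members. Every simulated library, WT included, was given the common spread of the fit, so the rates hold only under that spread. Among the members, Cox4i1 was called at 1.42-fold in bone marrow.

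Some motifs were more frequent in the promoters of the members than in those of all genes. RefSeq promoters on GRCm38.p6, from 250 bases before to 50 after the start, were found for 69 of 84 members. Searched on both strands, the letters of the nuclear respiratory factor 1 (NRF1) site were in 24.6% of them and in 5.19% of 27025 genes. CCGGAAG, the core of ETS family sites such as that of GABPA, was in 23.2% against 9.93%. AAGATGGC, the site of YY1, was in 15.9% against 3.19%, and the E-box CACGTG was in 10.1% against 8.09%. The ETS letters end and the YY1 letters begin with AAG, so 1 run can hold both. The NRF1 letters were in 4 of 15 members higher in VQ bone marrow, 2 of 6 lower and 9 of 40 not called, and the ETS letters gave the same counts. The YY1 letters were in 3 of 15, 0 of 6 and 8 of 40, and the E-box in 2 of 15, 0 of 6 and 4 of 40. With 6 lower members these counts are too small to compare.

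The stretches of 120 bases upstream of the start below show the motif in a gene that was not called (Cox6a1, Uqcrh), the same NRF1 letters in a gene that was lower (Atp5h), and a stretch with none of the 4 motifs in the gene most raised in lymph node (Uqcr10). Each is written 5′ to 3′ on the strand of its gene (minus for all 4), with the motif in capitals, and lies at chr5:115348982-115349101 (Cox6a1, NRF1), chr11:115419963-115420082 (Atp5h, NRF1), chr4:116075072-116075191 (Uqcrh, ETS on the other strand) and chr11:4704345-4704464 (Uqcr10).
Cox6a1: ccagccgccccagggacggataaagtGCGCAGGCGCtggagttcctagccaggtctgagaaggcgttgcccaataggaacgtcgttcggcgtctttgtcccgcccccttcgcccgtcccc
Atp5h: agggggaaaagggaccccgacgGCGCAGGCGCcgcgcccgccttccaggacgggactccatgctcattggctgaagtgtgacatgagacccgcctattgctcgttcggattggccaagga
Uqcrh: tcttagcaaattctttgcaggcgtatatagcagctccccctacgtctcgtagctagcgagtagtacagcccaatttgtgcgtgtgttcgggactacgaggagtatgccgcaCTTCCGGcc
Uqcr10: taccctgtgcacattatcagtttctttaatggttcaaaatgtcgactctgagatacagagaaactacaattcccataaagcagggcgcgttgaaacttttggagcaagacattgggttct
A match is a run of letters and not a measured site, and its absence says only that these letters are not in the window.

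Genes around the pathway were counted from lists chosen by function, and each count stands against the 17.7% of all genes called higher and 12% lower in bone marrow, and 16.2% and 11.9% in lymph node. Assembly factors had 4 of 43 called higher and 3 lower in VQ bone marrow, or 9.3% and 6.98%, both under the share of all genes (median 0.40, or 0.39 with the gene at 0 in WT at its bound) and 6 and 0 in lymph node. Among the factors called in bone marrow, the largest rises were those of Cmc2 and Sco2, which serve complex IV assembly and had 1 WT UMI each. The largest fall among them was that of Sdhaf2, which attaches flavin to Sdha (80.0 CPM in WT against 24.1, 20.4 and 31.3 CPM). Surf1, another complex IV factor, was also lower in bone marrow (111 CPM against 54.9 and 49.8 CPM). Electron carriers and other respiratory genes outside the members had 1 higher and 1 lower of 12 in bone marrow (Atpif1, an inhibitor of the ATP synthase, and Coq9, of ubiquinone synthesis) and 4 and 0 in lymph node, with medians of 1.49 and 1.34 on the log2 scale. Their summed level differed less, at 548 CPM in WT and 828, 783 and 895 CPM in the VQ libraries.

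Pyruvate dehydrogenase and the citric acid cycle had 6 higher and 2 lower of 18 in VQ bone marrow (33.3% and 11.1%, median 0.33) and 4 and 2 in lymph node (0.43). Dlat, the acetyltransferase core of pyruvate dehydrogenase, had 0 UMIs in WT and 106, 102 and 90.0 CPM in the VQ libraries, at least 5.67-fold higher in bone marrow against a floor of 3 counts in the WT library. Suclg1, of succinyl-CoA ligase, was 3.79-fold higher. Ogdh and Idh2 were 2.58-fold and 2.21-fold lower (191 CPM each in WT). Genes that maintain or express mitochondrial DNA and their regulators had 3 higher and 0 lower of 13 in bone marrow (23.1% and 0%, median 0.49) and 2 and 0 in lymph node (0.36). Pprc1, a coactivator of the PGC-1 family, had 0 UMIs in WT and 123, 109 and 114 CPM in VQ (at least 6.44-fold in bone marrow), and Polrmt, the mitochondrial RNA polymerase, had 1 WT UMI.

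Import of proteins into mitochondria had the largest share of calls among these lists. In VQ bone marrow 10 of 19 import and chaperone genes were higher and 1 lower, or 52.6% and 5.26% against 17.7% and 12% of all genes, with a median of 1.13, and lymph node gave the same counts with a median of 1.35. The list took 0.210% of UMIs in WT and 0.407%, 0.410% and 0.471% in VQ. Tomm40, the channel of the outer membrane, read 36.9 CPM in WT (6 UMIs) against 239, 222 and 246 CPM (log2 2.64, SE 0.43, edgeR adjusted p = 2.41e-08 in bone marrow). Timm9, a carrier chaperone of the intermembrane space, read 24.6 CPM against 130, 131 and 208 CPM, and Timm17b, of the inner membrane translocase, was lower (197 CPM against 94.3, 86.0 and 82.5 CPM). Metabolite carriers and channels had 2 higher and 0 lower of 11 in both comparisons (18.2% and 0%). Vdac1, the outer membrane channel, read 80.0 CPM in WT against 311, 348 and 324 CPM (log2 2.03, adjusted p = 3.74e-08), and Slc25a10, the dicarboxylate carrier, had 1 WT UMI.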

How the data were processed

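Per the labels, libraries were made on the ddSEQ instrument with the SureCell 3′ kit. The deposited values are the authors' unscaled UMI counts, 1 table per library. The submitters' processing notes name mm10 as the build, and the aligner is not given in the sources used here. Total UMIs other than Jchain per library stand in the report. Counts of the selected cells were summed per library, since cells are not replicates, and Jchain was removed. The sums were fitted with edgeR 4.0.16 in R 4.3.3 (filterByExpr, library totals, quasi-likelihood test) in 1 fit of 3 group means over 4 libraries and 8414 genes. Spread is estimated from the VQ bone marrow pair alone (1 residual degree of freedom) and is assumed to hold for the single WT and lymph node libraries. The fit set the prior degrees of freedom to infinity. Each gene thus took the spread shared over genes, and its own spread had no weight in its p-value. The common coefficient of variation was 0.0919. Each SE is computed back from the test. The fit was tested on simulated data, with 7 false among 129 calls in VQ bone marrow against WT. Those counts were drawn with the common spread of the fit for every gene and library. The simulation thus cannot test whether WT varies like the VQ bone marrow pair, or whether genes share 1 spread. No doublet caller was run. Levels from 3′ UMIs do not depend on transcript length, and most comparisons are within a gene.

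Members are named as follows: for each complex and comparison with WT, up to 2 called members of largest change in each direction; the member with the highest level of each complex; complex II; and subunit forms that replace each other. Other members named were chosen after their values were seen. The values of 1 member are not reported here on their own and are not plotted, but it stays in the counts and sums. The members and lists were chosen with earlier results of these data known. Coordinates and 3′ ends come from GENCODE on GRCm38 and promoters from RefSeq on GRCm38.p6. Alternatives covered scaling, DESeq2 1.42.0, a preset coefficient of variation of 0.2, the filter, the cells, thinning, grouping and left-out libraries.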

Additional observations from a re-analysis of the deposited data

How the results depend on the processing

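None of the 25 members called in bone marrow and 20 in lymph node reversed direction under any alternative run, but the numbers called did change. For VQ bone marrow against WT, members called higher, called lower and their median log2 fold change were 19, 6 and 0.16 as reported. With Jchain kept in the totals they were 31, 3 and 0.48, with DESeq2 2, 2 and 0.075, and without cells with cell cycle genes 3, 2 and 0.0833. The preset coefficient of variation gave 3 and 2 (4.17% and 2.78%, against 11.4% and 8.49% of all genes, so that the larger share of higher calls turned into a smaller one), and thinned sums 0 and 0 with a median of 0.0496. A Jchain limit of 2% gave 11 higher, and all cells gave 3 lower with a median of 0.22. The VQ libraries as 1 group gave 12 higher with a median of 0.21. The median was 0.26 without ribosomal protein genes and 0.23 at a Jchain limit of 10%. For lymph node against WT the reported values were 15, 5 and 0.28. They were 33, 2 and 0.60 with Jchain, 2, 0 and 0.23 with DESeq2, and 2, 3 and 0.18 without cells with cell cycle genes. The preset coefficient of variation gave 3 and 1, thinned sums 0 and 0, and a Jchain limit of 2% gave 7 and 3. Members called lower were 3 at a limit of 10%, 2 with all cells and 3 without ribosomal protein genes, where the median was 0.38. The median was 0.23 without cells with markers of another type and 0.21 with the VQ libraries as 1 group. Leaving out each VQ library in turn from that group gave 7 to 19 higher, 3 to 6 lower and a median of 0.16 to 0.25 for bone marrow, and 7 to 9 higher, 3 lower and 0.22 to 0.25 with lymph node in the group. Leaving out a VQ bone marrow replicate from the fit of 3 groups, which allows no test, gave bone marrow medians of 0.0895 to 0.166. Over all genes, 25.8% were called higher in bone marrow with Jchain kept in and 2.66% with DESeq2. The thinned fit called 0 of 4877 genes. The cause was not tested. Lymph node against VQ bone marrow had 0 members called in every alternative with a test. No paired analysis was possible because WT and lymph node have 1 library each. The WT total of UMIs limits precision throughout.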
